A study of Mus musculus with 4 samples.

Results

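The 35 genes described here encode glucose carriers, the enzymes of glycolysis, lactate dehydrogenases and lactate carriers, the enzymes of the pentose phosphate pathway, and the carriers and enzyme subunits that pass pyruvate into the mitochondria, together with Hif1a and Pdk1. They were chosen by symbol from the 52636 genes of the deposited table, and all 35 symbols were found. They were followed in 4 RNA-seq libraries of regulatory T cells, sorted as CD4+CD62L+CD25bright from C57BL/6 mice aged 7 weeks. Those labelled KITKO, replicates 2 and 3, are given the genotype Vav1R63WThemis1-T-/- by their labels. Those labelled KI, replicates 2 and 3, are given the genotype Vav1R63W. By these labels both groups carry the R63W form of Vav1, a signalling adaptor of the T cell receptor, and differ in Themis1, a T cell receptor signalling protein (gene Themis) that is labelled as lost in T cells in the KITKO mice. The driver of that deletion, the deleted exons and whether the replicates are separate animals are not given in the sources used here, so the p-values below measure no more than the variation among these 4 libraries, part or all of which may be technical.

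Glycolysis splits glucose into pyruvate, with hexokinase, phosphofructokinase and pyruvate kinase as its main control points, and lactate dehydrogenase recycles its cofactor by turning pyruvate into lactate. The pentose phosphate pathway draws off sugar phosphate for NADPH and ribose, and the pyruvate carrier and the pyruvate dehydrogenase complex feed pyruvate to the tricarboxylic acid cycle. Activated conventional T cells raise glycolysis strongly through Myc, mTOR and HIF-1, whereas regulatory T cells are known to rely more on oxidation of pyruvate and fatty acids.

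Reads of the targeted gene did not follow the labels. Themis had 685 and 0 reads in the libraries labelled KITKO, replicates 2 and 3, against 283 and 97 reads in KI replicates 2 and 3. The library labelled KITKO, replicate 2, thus held more Themis reads than either KI library. For some results the value without it is also given, and a result lacking that second value may still rest on it. Reads assigned to genes ranged from 13963670 to 15953194 per library. All 7 regulatory T cell markers had reads, with summed levels of 2811 and 2415 CPM (counts scaled to a library total of 1e+06 gene-assigned reads) in the libraries labelled KITKO and 2804 and 2293 CPM in KI. Of the markers of other cells, all 6 of monocytes and macrophages were at 0 in every library. The B cell receptor genes Cd79a and Cd79b summed to 37.9 and 62.7 CPM in the libraries labelled KITKO, both below 68.0 and 68.9 CPM in KI, and the 8 markers of dividing cells summed to 41.6 and 123 CPM, against 82.4 and 105 CPM. Their part in the results below was not tested, and in bulk RNA fewer cells of a type and less RNA per cell cannot be told apart.

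No gene of the 35 passed the main test between the genotypes, and 2 of them, Pfkp (higher) and Tpi1 (lower), passed in the authors' deposited table. In edgeR's quasi-likelihood test with Benjamini-Hochberg adjustment over 10216 genes, 0 of the 34 tested members had an adjusted p under 0.05, against 0% of all genes. The smallest adjusted p among the members was 0.900. At an unadjusted p under 0.05 there were 3 members, Pfkp (higher) and Tpi1 and Hk2 (lower), beside 4.98% of all genes tested. DESeq2 at its defaults called 0 members, against 1.88% of all genes, and limma-voom called 0. The authors' deposited table called 2 of the 31 members to which it gives an adjusted p, against 1.56% of all its genes (0.737% higher, 0.826% lower). The log2 fold changes were positive for 18 members and negative for 16, with a median of 0.03 over the 34 members and 0.0019 over all genes tested. Eno2 had no reads in any library. Hk2 passed the filter on low counts only through the KI libraries, where it is high, so once tested it had to differ. Its p is a description of these libraries. Pfkm and Aldoc, at 0 in 1 library labelled KITKO, would not have passed that filter through the KITKO libraries alone. Their p values are also read as descriptions of these libraries.

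**Figure D1:**
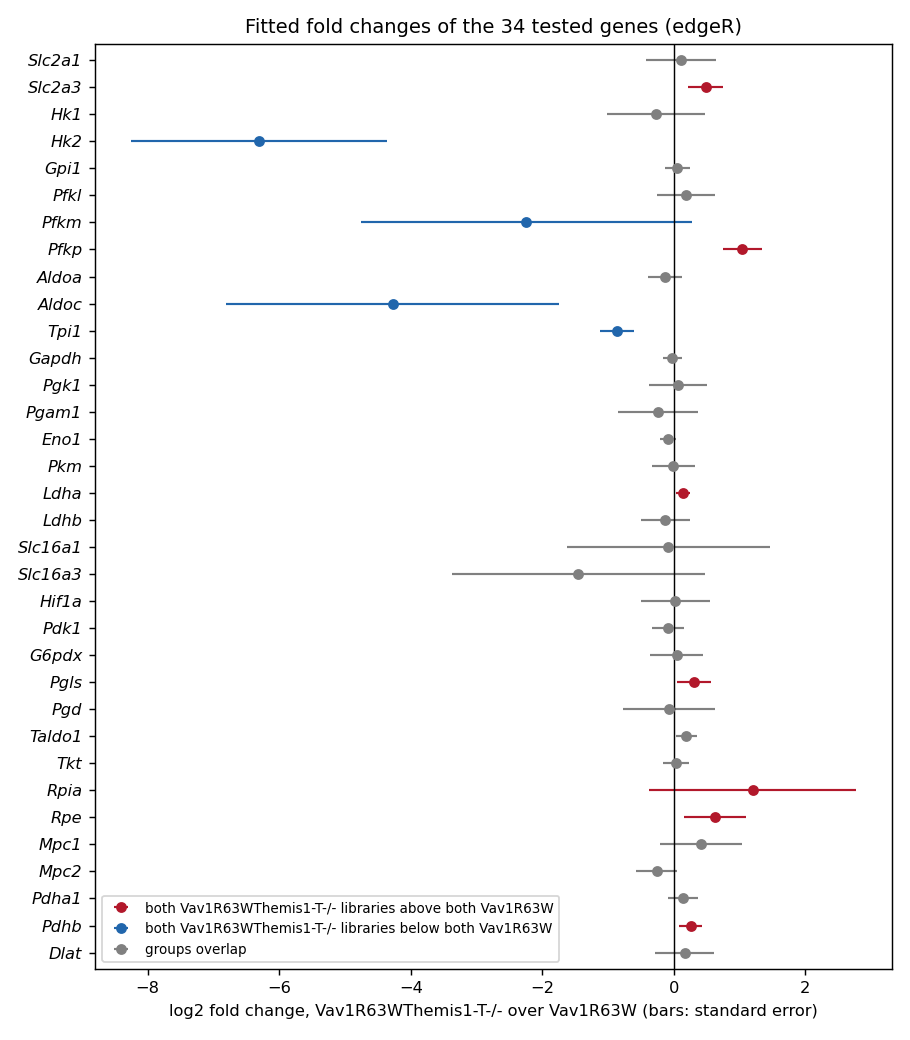
Fitted log2 fold change of each of the 34 tested genes, libraries labelled Vav1R63WThemis1-T-/- over Vav1R63W, by edgeR, with bars of 1 standard error. Points are coloured by whether both libraries of a group lie above both of the other: 7 genes lie above, 4 below and 23 overlap.

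Taken over all 35 genes, the groups overlapped. The 35 genes summed to 11519 and 11057 CPM in the libraries labelled KITKO, replicates 2 and 3, against 10811 and 11702 CPM in KI, so the KITKO values lay inside the range of the KI ones. This was 1.15% and 1.11% of the reads of the KITKO libraries and 1.08% and 1.17% of those of KI. Ldha, Eno1 and Gapdh alone held 54.0% and 58.5% of the pathway's reads in the libraries labelled KITKO and 55.5% and 57.3% in KI. Per kilobase of exon (the union of all annotated exons of a gene), mean levels over the 4 libraries were 805 CPM per kb for Ldha, 397 for Eno1, 375 for Gapdh, 232 for Taldo1, 207 for Aldoa and 164 for Pkm. At the low end of the same scale stood Rpia at 0.99 CPM per kb, Hk2 at 0.27, Slc16a3 at 0.21 and Eno2 at 0. Divided instead by the length of the principal transcript, the order of Gapdh and Eno1 turned round, at 1091 and 1054 CPM per kb, and Ldha stayed first at 1509.

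**Figure D2:**
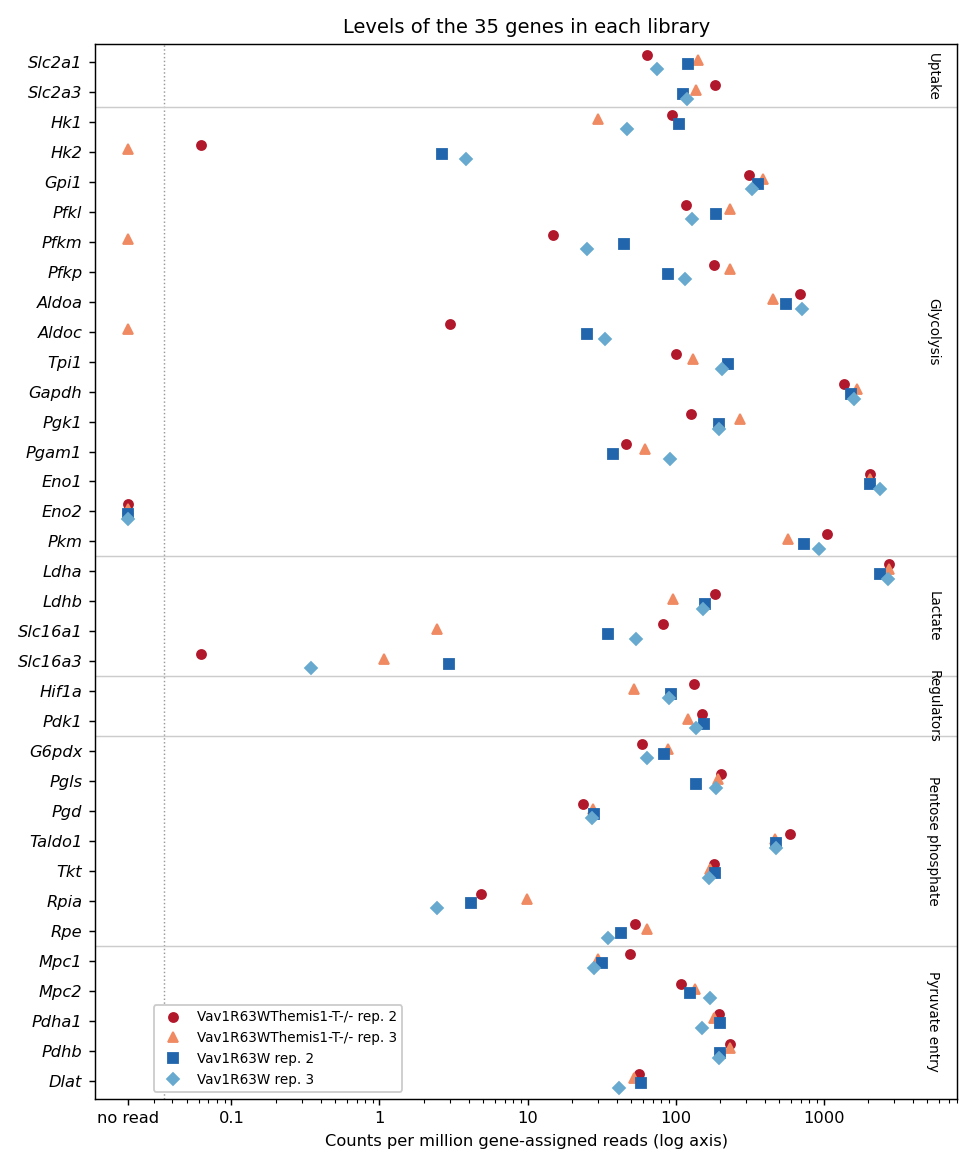
Level of each of the 35 genes in CPM (log axis) in each library, by role, with libraries at 0 drawn left of the dotted line. The leading genes Ldha, Eno1 and Gapdh sit close together in all 4 libraries, whereas Hk2, Pfkm, Aldoc and Slc16a1 spread widely, with few or no reads in 1 or both libraries labelled Vav1R63WThemis1-T-/-.

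Replicates within a group differed widely for some members. The 2 libraries labelled KITKO differed by more than 2-fold for 10 of 34 tested members, and the 2 KI libraries for 3 of 34; over all genes tested the shares were 47.6% and 38.2%. Both libraries labelled KITKO lay above both KI libraries for 7 members and below both for 4, so 11 of 34 did not overlap, against 33.8% of all genes. The 7 were Pfkp, Slc2a3, Pdhb, Rpe, Ldha, Pgls and Rpia, beside 15.1% of all genes, and the 4 were Tpi1, Hk2, Aldoc and Pfkm, beside 18.7%. The members' share of groups that do not overlap was thus near that of all genes. With 2 libraries against 2, an exact two-sided permutation test cannot give a p below 0.333, so no such test is given for the summed or relative levels.

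The phosphofructokinase and triose phosphate isomerase genes carry the 2 deposited calls, and Hk2 the largest fitted difference of the 3 with an unadjusted p under 0.05, so their promoter windows are shown. Each runs from 250 bases before to 50 bases after the annotated start on the minus strand (RefSeq, GRCm38.p6), 5′ to 3′. Capitals mark the core of the hypoxia response element, ACGTG or GCGTG on either strand, to which HIF-1 binds. The windows lie at chr13:6648722-6649021 for Pfkp, chr6:124814109-124814408 for Tpi1 and chr6:82774405-82774704 for Hk2.
Pfkp: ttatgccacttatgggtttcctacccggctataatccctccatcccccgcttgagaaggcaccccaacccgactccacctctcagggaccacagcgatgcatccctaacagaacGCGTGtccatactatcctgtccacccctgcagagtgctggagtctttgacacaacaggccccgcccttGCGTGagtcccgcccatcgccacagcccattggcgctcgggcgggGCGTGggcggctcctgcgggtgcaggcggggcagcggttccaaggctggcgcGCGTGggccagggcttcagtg
Tpi1: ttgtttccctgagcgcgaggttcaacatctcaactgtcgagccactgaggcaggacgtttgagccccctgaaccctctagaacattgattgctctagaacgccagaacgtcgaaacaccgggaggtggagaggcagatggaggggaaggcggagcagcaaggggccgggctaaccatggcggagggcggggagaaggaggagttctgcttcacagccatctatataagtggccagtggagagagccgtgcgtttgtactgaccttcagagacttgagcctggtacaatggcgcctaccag
Hk2: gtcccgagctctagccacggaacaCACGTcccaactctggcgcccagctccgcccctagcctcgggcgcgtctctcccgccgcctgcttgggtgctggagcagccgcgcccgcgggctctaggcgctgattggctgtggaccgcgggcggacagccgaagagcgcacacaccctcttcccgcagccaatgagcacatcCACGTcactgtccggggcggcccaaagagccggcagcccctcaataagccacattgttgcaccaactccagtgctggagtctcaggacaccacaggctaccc
The Pfkp window held 4 such runs, all GCGTG, starting at -136, -68, -23 and 30 from the start site. The Tpi1 window held 0, and the Hk2 window held 2, at -226 and -52, each read as CACGT on this strand. Of the 35 members 34 matched the promoter table, with 48 windows in all, some of which overlap within a gene. The core was found in 75% of these 48 windows and in 43.8% of all 32851 windows of that length, and the E-box CACGTG, which contains it, in 8.33% and 7.15%. The median GC content was 61.2% in the member windows and 52.7% in all windows, and the GC box GGGCGG was in 62.5% and 35.7%. A match is only a run of letters, and binding was not measured.

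Glucose enters T cells mainly through the carriers GLUT1 (Slc2a1) and GLUT3 (Slc2a3). Slc2a3 stood at 183 and 136 CPM in the libraries labelled KITKO, replicates 2 and 3, against 112 and 119.7 CPM in KI. The groups did not overlap, and the edgeR log2 fold change was 0.48 ± 0.27 (SE), with an unadjusted p of 0.136. Without the library labelled KITKO, replicate 2, this fold change was 0.28. Slc2a1 stood at 64.1 and 142 CPM in the libraries labelled KITKO and 121 and 75.1 CPM in KI. Its KITKO replicates were the lowest and the highest of the 4, and the fold change was 0.11 ± 0.53 (log2, SE). The sum of both carriers was 248 and 279 CPM, against 233 and 195 CPM in KI, without overlap.

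Hexokinase traps glucose by phosphorylating it, with Hk1 as the widespread isozyme and Hk2 as the one raised in activated T cells. Hk1 had 1519 and 417 reads (95.2 and 29.9 CPM) in the libraries labelled KITKO, against 1476 and 681 reads (105 and 47.3 CPM) in KI. In both groups replicate 2 was the higher, and the groups overlapped (log2 fold change -0.27 ± 0.75, SE). Hk2 had 1 and 0 reads in the libraries labelled KITKO and 37 and 55 reads (2.64 and 3.82 CPM) in KI. Both KITKO libraries were below both KI libraries at these low levels, and the ratio of KITKO to KI reads, scaled by library totals, was 0.0103 with an exact 95% binomial interval of 0.000258 to 0.0589 that covers counting error only. In edgeR the unadjusted p was 0.0287 and the adjusted p 0.900, and the authors' deposited table gives Hk2 no adjusted p. As Hk2 passed the filter on low counts only through the KI libraries, its edgeR p only describes these libraries. Hk1 supplied 99.9% and 100% of hexokinase CPM per kb in the libraries labelled KITKO, against 96.5% and 89.7% in KI.

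Phosphofructokinase, the committed step of glycolysis, is built from subunits of platelet (Pfkp), liver (Pfkl) and muscle (Pfkm) type. Pfkp (ENSMUSG00000021196, GRCm38 chromosome 13, 6579768 to 6648777, minus strand) had 2909 and 3243 reads in the libraries labelled KITKO, replicates 2 and 3, against 1242 and 1675 reads in KI. These were 182 and 232 CPM in the KITKO libraries (mean 207 ± 35.3, SD, n = 2) and 88.7 and 116 CPM in KI (103 ± 19.5, SD, n = 2). Both KITKO libraries lay above both KI libraries, with a ratio of means of 2.02, and leaving out the library labelled KITKO, replicate 2, kept the direction. The edgeR log2 fold change was 1.04 ± 0.29 (SE; unadjusted p 0.0221, adjusted p 0.900) and 1.22 without that library. The authors' deposited table gives Pfkp a log2 fold change of 0.91 and an adjusted p of 0.0275.

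Pfkm had 236 and 0 reads (14.8 and 0 CPM) in the libraries labelled KITKO, against 632 and 363 reads (45.1 and 25.2 CPM) in KI. Both KITKO libraries were below KI, but 1 of them held no read, and the edgeR log2 fold change of -2.24 ± 2.52 (SE) was smaller than its error. In that library, replicate 3, the 2 strand columns assigned 13 and 12 reads to Pfkm, which the unstranded column does not count. Of Pfkm, 18 exon bases are shared with Senp1 on the opposite strand. Another 341 are shared with Gm26513 on the same strand. As the kit used leaves strand unmarked, a strand column cannot tell Pfkm from a gene on either strand. Which gene the 13 and 12 reads come from was not tested. Pfkl stood at 117 and 233 CPM in the libraries labelled KITKO and 187 and 129 CPM in KI, and the groups overlapped (0.18 ± 0.44, log2, SE). Relative to the family, Pfkp made up 38.3% and 33.2% of phosphofructokinase CPM per kb in the libraries labelled KITKO, against 13.7% and 24.4% in KI. Pfkm made up 12.5% and 0% in those libraries, against 28.0% and 21.2% in KI. These groups did not overlap, nor did they when the principal transcript was used as length, with Pfkp at 54.7% and 47.3% in the libraries labelled KITKO and 24.5% and 39.3% in KI. Which subunit leads depends on the length: with union exons Pfkl was at 26.2 and Pfkp at 15.5 CPM per kb in the libraries labelled KITKO, and with principal transcripts Pfkl was at 46.9 and Pfkp at 50.01.

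**Figure D3:**
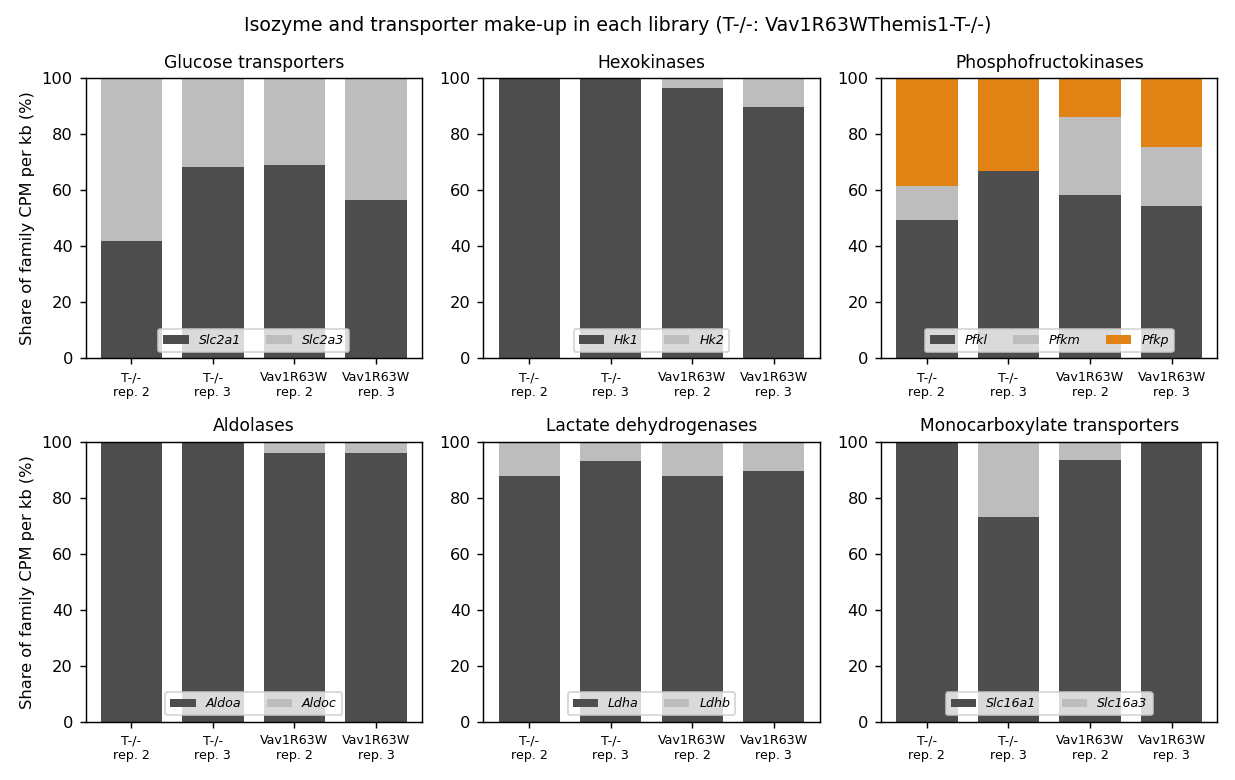
Share of each isozyme or carrier in the CPM per kb of union exon of its family (%), stacked to 100 in each library (T-/- stands for Vav1R63WThemis1-T-/-). The Pfkp share lies at 38.3% and 33.2% in the libraries labelled T-/- and at 13.7% and 24.4% in Vav1R63W; Ldha, Aldoa and Hk1 take most of their families in every library.

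Aldolase cleaves the bisphosphorylated sugar, and triose phosphate isomerase (Tpi1) turns the product that glycolysis cannot use into the one that it can. Tpi1 (ENSMUSG00000023456, GRCm38 chromosome 6, 124810586 to 124814296, minus strand) had 1610 and 1824 reads in the libraries labelled KITKO, replicates 2 and 3, against 3151 and 2953 reads in KI. In CPM this was 101 and 131 (116 ± 21.0, SD, n = 2) in the KITKO libraries and 225 and 205 (215 ± 14.1, SD, n = 2) in KI. Both KITKO libraries were below both KI libraries, at a ratio of means of 0.54. The edgeR log2 fold change was -0.86 ± 0.25 (SE; unadjusted p 0.0241, adjusted p 0.900) and -0.67 without the library labelled KITKO, replicate 2. The authors' deposited table gives Tpi1 a log2 fold change of -0.77 and an adjusted p of 0.0406.

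At the steps on either side of Tpi1 the groups overlapped for the main genes. Aldoa, the main aldolase, stood at 687 and 454 CPM in the libraries labelled KITKO and 555 and 716 CPM in KI, with overlap (-0.14 ± 0.26, log2, SE). Gapdh, which acts on the product of Tpi1, stood at 1375 and 1670.0 CPM in the libraries labelled KITKO, against 1540.2 and 1609 CPM in KI (-0.02 ± 0.15, log2, SE). Aldoc, the brain-type aldolase, had 48 and 0 reads in the libraries labelled KITKO and 355 and 479 reads in KI. Both KITKO libraries were far below KI, yet the edgeR log2 fold change of -4.28 ± 2.53 (SE) had an unadjusted p of 0.162, and Aldoc supplied at most 3.98% of aldolase CPM per kb in any library.

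The deposited calls of Pfkp and Tpi1 depend on how the spread of counts is modelled. DESeq2 at its defaults gave adjusted p values of 0.241 for Pfkp and 0.351 for Tpi1. With a local trend of dispersion and shrunken folds, a setting chosen after seeing the data, DESeq2 called 111 genes, all of them among the 123 genes called in the authors' deposited table, and its fold changes differed from the deposited ones by a median of 0.00202 (log2). Under that setting Pfkp had an adjusted p of 0.0305 and Tpi1 of 0.0459, and 2 members were called beside 1.29% of all genes. With the local trend alone the same 2 were called, beside 4.09% of all genes. Without the library labelled KITKO, replicate 2, the same setting called 5 members beside 16.7% of all genes: Pfkp and Tpi1 again, and Pfkm, Aldoc and Slc16a1, all lower. The KITKO group is then the single replicate 3, assumed to vary like KI, and the 3 added genes are those with 0, 0 and 34 reads there; edgeR without that library called 0 members.

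At the other steps to pyruvate the groups overlapped for every member. Eno1, the enolase of most tissues, stood at 2068 and 2039.6 CPM in the libraries labelled KITKO, against 2045 and 2391 CPM in KI (-0.09 ± 0.12, log2, SE). Reads of its near copy Eno1b numbered 1929 and 1239 in the libraries labelled KITKO, against 1980 and 639 in KI, so some reads could be shared between the copies. Gpi1, Pgk1, Pgam1 and Pkm had fold changes from -0.24 (Pgam1) to 0.06 (Pgk1) on the log2 scale, with overlapping groups. Pgk1 differed within the libraries labelled KITKO, at 126 and 274 CPM, against 198 and 195 CPM in KI. The 15 glycolytic enzyme genes summed to 6180 and 6092 CPM in the libraries labelled KITKO, against 6148 and 6819 CPM in KI.

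Lactate dehydrogenase A (Ldha) favours lactate formation and Ldhb the reverse. Ldha stood at 2778 and 2758 CPM in the libraries labelled KITKO and 2417 and 2707 CPM in KI. The groups were separate by a narrow margin (0.14 ± 0.11, log2, SE; unadjusted edgeR p 0.263). Ldhb stood at 184 and 96.3 CPM in the libraries labelled KITKO, against 158 and 152 CPM in KI, with overlap. Its edgeR log2 fold change was -0.13 with all libraries and -0.64 without the library labelled KITKO, replicate 2. Ldha made up 87.8% and 93.1% of the family's CPM per kb in the libraries labelled KITKO, against 87.9% and 89.4% in KI.

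Lactate leaves or enters cells through the carriers MCT1 (Slc16a1) and MCT4 (Slc16a3). Slc16a1 had 1301 and 34 reads (81.6 and 2.43 CPM) in the libraries labelled KITKO, against 490 and 775 reads (34.99 and 53.8 CPM) in KI. The KITKO replicates were thus the highest and the lowest of the 4 libraries. The edgeR log2 fold change was -0.08 ± 1.55 (SE) with all libraries, -4.14 without KITKO replicate 2 and 0.87 without KITKO replicate 3. Without KI replicate 3 it was 0.28, so its direction depended on which library was left out. Slc16a3 had 1 and 15 reads in the libraries labelled KITKO and 41 and 5 reads in KI, too few to order the groups.

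Hif1a encodes the oxygen-regulated subunit of HIF-1, which drives glycolytic genes, and Pdk1 encodes a kinase that shuts off pyruvate dehydrogenase. Hif1a stood at 133 and 52.6 CPM in the libraries labelled KITKO, on either side of 93.2 and 90.8 CPM in KI (0.03 ± 0.52, log2, SE). Without the library labelled KITKO, replicate 2, its edgeR log2 fold change was -0.76. Pdk1 had a log2 fold change of -0.08 ± 0.25 (SE), also with overlap.

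Of the pentose phosphate genes, the oxidative branch (G6pdx, Pgls, Pgd) makes NADPH and the other branch (Rpia, Rpe, Tkt, Taldo1) exchanges sugar phosphates. The 7 genes summed to 1120 and 1023 CPM in the libraries labelled KITKO (1072 ± 68.8, SD, n = 2), against 954 and 958 CPM in KI (956 ± 3.29, SD, n = 2). The sums did not overlap. Taldo1 is the most abundant of the 7 per kilobase. Taldo1 stood at 595 and 469 CPM in the libraries labelled KITKO and 474 and 475 CPM in KI, and its edgeR log2 fold change of 0.19 ± 0.16 (SE) was 0.03 without the library labelled KITKO, replicate 2. Pgls stood at 202 and 192 CPM in the libraries labelled KITKO, against 137 and 187 CPM in KI (0.30 ± 0.25, log2, SE).

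Rpe, the epimerase of ribulose phosphate, stood at 53.3 and 64.2 CPM in the libraries labelled KITKO, against 42.8 and 34.9 CPM in KI. Its groups did not overlap, and the edgeR log2 fold change was 0.63 ± 0.47 (SE), with an unadjusted p of 0.246. Rpia had 77 and 138 reads in the libraries labelled KITKO and 58 and 35 reads in KI, again without overlap (1.199 ± 1.57, log2, SE). G6pdx, Pgd and Tkt had fold changes from -0.07 (Pgd) to 0.04 (G6pdx), with overlapping groups.

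Pyruvate enters mitochondria through the carrier of Mpc1 and Mpc2 and is oxidised by the complex of Pdha1, Pdhb and Dlat. Pdhb stood at 232 and 232 CPM in the libraries labelled KITKO, against 199.7 and 197 CPM in KI. Replicates were close and the groups separate, with an edgeR log2 fold change of 0.25 ± 0.18 (SE) and an unadjusted p of 0.215. Pdha1 and Dlat overlapped between groups, at 0.14 ± 0.23 and 0.16 ± 0.45 (log2, SE). Mpc2 stood at 108 and 135 CPM in the libraries labelled KITKO and 125 and 172 CPM in KI, with overlap. The 5 genes summed to 644 and 630 CPM in the libraries labelled KITKO, against 614 and 589 CPM in KI, without overlap.

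Mpc1 is the member whose counts depend most on how reads were assigned. It had 784 and 416 reads in the libraries labelled KITKO, against 446 and 405 reads in KI, a log2 fold change of 0.42 ± 0.62 (SE). Without the library labelled KITKO, replicate 2, that fold change was 0.036. Reads of its copy Mpc1-ps numbered 362 and 341 in the libraries labelled KITKO, against 304 and 345 in KI, so some reads could be shared between the copies. The 2 strand columns together assigned 4.91 times as many reads to Mpc1 as the unstranded column, 10078 against 2051 over the 4 libraries. As the kit used leaves strand unmarked, these columns cannot tell Mpc1 from a gene on the opposite strand. Which gene the added reads come from was not tested. On the opposite strand 4930506C21Rik overlaps 480 exon bases of Mpc1, 23.1% of its exon length. A single strand column assigned Mpc1 1472 and 1159 reads in the libraries labelled KITKO and 1076 and 1315 reads in KI, with overlap. The log2 fold change of these assigned reads was 0.09. The same ratio was 1.45 for Pdha1 and 1.30 for Gpi1, and 1.03 for Pfkp and 1.00 for Tpi1, so the counts of these last genes hardly depended on it.

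**Figure D4:**
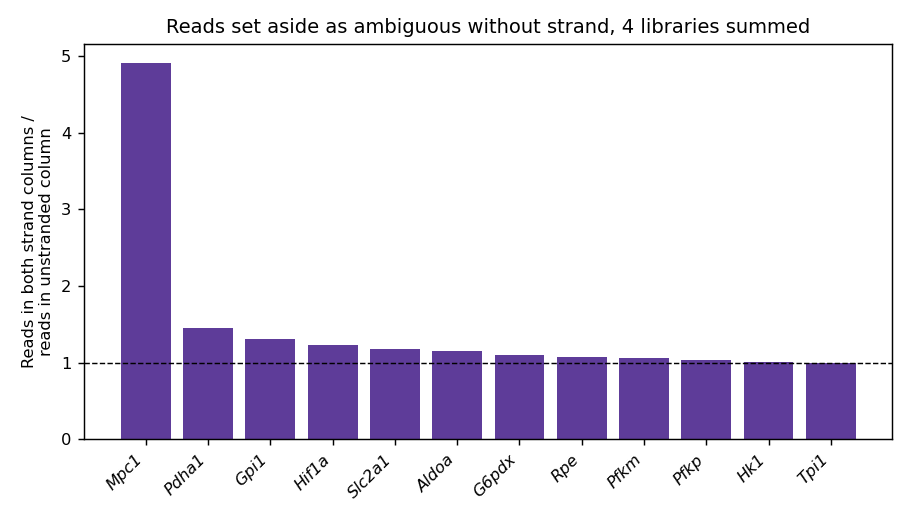
Reads in both strand columns divided by reads in the unstranded column, summed over the 4 libraries, for the 12 members with the highest ratio. Mpc1 stands at 4.91, Pdha1 at 1.45 and Gpi1 at 1.30, while Hk1 and Tpi1 stand near the dashed line at 1.

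Other genes of the pathways were read from 3 lists, and edgeR called 0 genes in each, as did DESeq2 with the local trend and shrunken folds. Of the genes named from them, Gys1, Tktl1, Gapdhs, Mtor and Ppargc1b passed the filter on low counts only through the KI libraries, where they are high. Once tested they had to differ, and their p values are descriptions of these libraries. Hif1an, with 25 and 5 reads in the libraries labelled KITKO, would not have passed through those libraries alone, so its p values are read in the same way. Of related metabolic genes outside the 35, 39 of 64 were tested, with a median log2 fold change of -0.07. At an unadjusted edgeR p under 0.05 there were 5 (2 higher, 3 lower), beside 4.98% of all genes tested. The 3 lower were Gys1, Tktl1 and Gapdhs (1 and 0 reads in the libraries labelled KITKO, 39 and 11 in KI). Of the 2 higher, Galm had 1457 and 976 reads in the libraries labelled KITKO, against 521 and 413 in KI. Pdhx had 1073 and 741, against 313 and 317. The authors' deposited table gives these 2 adjusted p values of 0.0501 and 0.0551. DESeq2 called 3 of this list, all lower, beside 1.1% of all genes. Gys1, the glycogen synthase of muscle and most other tissues, had 0 and 1 reads in the libraries labelled KITKO, against 172 and 532 reads in KI. This is a ratio of 0.00135 with an exact 95% interval of 3.41e-05 to 0.00754, and a DESeq2 adjusted p of 0.000407, whereas the authors' deposited table gives 0.0875 and DESeq2 with the local trend and shrunken folds 0.103. Tktl1, a transketolase-like gene, had 0 reads in both libraries labelled KITKO and 162 and 93 reads in KI, at least 44.7-fold lower against a floor of 3 reads per library (DESeq2 adjusted p 0.0455). The other called gene, Shpk, had 0 reads in both libraries labelled KITKO and 711 and 1 reads in KI, so its call rests on 1 KI library; it was named after its values were seen.

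Of HIF pathway and target genes, 23 of 33 were tested, and the median log2 fold change was -0.05. At an unadjusted edgeR p under 0.05 there was 1, Hif1an, beside 4.98% of all genes tested. Without the library labelled KITKO, replicate 2, the median was -0.30 over 27 tested genes of this list, beside -0.20 over all genes. Hif1an, the asparagine hydroxylase that inhibits HIF-1, had 25 and 5 reads in the libraries labelled KITKO, against 292 and 552 reads in KI. Both KITKO libraries were far below KI (-4.92 ± 1.52, log2, SE; adjusted edgeR p 0.900), DESeq2 gave an adjusted p of 0.00871, and the authors' deposited table gives 0.0467. Cul2, the scaffold of the ligase that marks HIF-1 for breakdown, had 1023 and 513 reads in the libraries labelled KITKO and 212 and 210 reads in KI (1.78 ± 0.67, log2, SE; adjusted edgeR p 1.00). DESeq2 called 1 gene of this list lower, Hif1an, and 1 higher, beside 0.775% of all genes. The higher one, P4ha2, also named after its values were seen, had 0 and 355 reads in the libraries labelled KITKO and none in KI, so it rests on 1 library. Of regulators of glucose metabolism, 35 of 42 were tested, and the median log2 fold change was 0.06. At an unadjusted edgeR p under 0.05 there were 2, Mtor and Ppargc1b, beside 4.98% of all genes tested. Mtor, the growth kinase, had 0 and 1 reads in the libraries labelled KITKO and 178 and 181 reads in KI, a ratio of 0.00264 with an exact 95% interval of 6.68e-05 to 0.0148 (DESeq2 adjusted p 0.0139). Ppargc1b, a coactivator of mitochondrial genes, had 0 reads in both libraries labelled KITKO and 88 and 104 reads in KI, at least 33.5-fold lower against the same floor (DESeq2 adjusted p 0.14). A gene at 0 in a single library was common in these data: 1227 of the 10216 genes tested had 0 reads in just 1 library labelled KITKO, and 807 in just 1 KI library.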

How the data were processed

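Reads were trimmed with Trim Galore, aligned with STAR and compared with DESeq2 through SARTools at an FDR of 0.05, with FastQC and MultiQC as checks, per the submitters' processing notes and the design text. No versions are stated. For the genome, the text cites Ensembl 90 but the notes list mm9. The deposited files hold raw read counts per gene, without strand and for each strand, and the kit used leaves strand unmarked. The authors' deposited table adds a fold change as a ratio, its log2 and p-values, per the file headers. Normalized counts that the authors divided by size factors and rounded, also deposited, were handled as a score and entered no test. The unstranded counts were used, since they equal that table for all 52636 genes. Summary lines (unmapped, multimapping, no feature, ambiguous) held 21.1% to 23.1% of reads and were left out. All 4 per-library columns were mapped.

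The 35 members and all lists were chosen with earlier results of these data known. Levels are CPM of gene-assigned reads. Groups were compared with edgeR 4.0.16 in R 4.3.3 (TMM, filterByExpr with minimum count 10 and total 15, robust quasi-likelihood F test, two-sided, no block, Benjamini-Hochberg over all genes tested). Standard errors equal log2 fold change over root F. The script was tested on simulated data. Alternatives were DESeq2 1.42.0, limma-voom 3.58.1, other scalings and filters, a strand column, a replicate block and each library left out. Added after seeing the data were DESeq2 with a local dispersion trend, with and without shrunken folds and the library labelled KITKO, replicate 2, and principal transcript lengths. Lengths and coordinates are GENCODE M21 (GRCm38), by gene ID; symbols matched for 52403 IDs. Values per library were given for 22 members: isozyme and carrier families, the 12 smallest unadjusted p, deposited calls and members under 10 reads in a group; of each other list the 2 genes with the smallest p are named. Further values shown (Gapdh, Pgk1, Hif1a, Rpia, Gapdhs, Galm, Pdhx, the copies Eno1b and Mpc1-ps) were added after their values were seen. A second Aldoa ID had 0 reads. Intervals and floors of 3 reads cover counting error only, as PCR copies are not independent molecules. A single marker gene is not reported here.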

Additional observations from a re-analysis of the deposited data

How the results depend on the processing

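The directions of Pfkp (0.82 to 1.28, log2) and Tpi1 (-1.09 to -0.67) held under the edgeR, DESeq2 default and limma-voom alternatives. In edgeR each library left out gave 0 called genes, and Benjamini-Hochberg calls of members were 0 with every other scaling, filter, strand column and block, and in limma-voom. DESeq2 called 206 genes at its defaults, of them 3 related metabolic genes, 2 HIF genes and 1 regulator. With a local trend it called 449 genes, 2 members, 4 related metabolic genes, 3 HIF genes and 2 regulators. With shrunken folds too it called 111 genes, 2 members and 0 genes of each of the 3 other lists; without KITKO replicate 2 it then called 1496 genes, 5 members, 5 related metabolic genes, 5 HIF genes and 6 regulators. At the defaults and with the local trend, 34 members, 42 related metabolic genes, 28 HIF genes and 36 regulators had an adjusted p. The shares called of all genes were 1.88% and 4.09%, and 1.29% with shrunken folds too. With shrunken folds and without KITKO replicate 2 these numbers were 32, 38, 20 and 34, and the share of all genes was 16.7%. KITKO replicate 3 then stands alone, so these last counts carry no spread for KITKO. Without KITKO replicate 2 the median edgeR log2 fold change of all genes was -0.20. Same-numbered libraries correlated at 0.0181 in their deviations, so the numbers are not treated as pairs; with the replicate block the members' median was -0.042 and 0 genes were called.

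The sign of 21 of the 34 tested members turned when 1 library was left out, 9 of them among the 22 given per library. The log2 fold changes of these 9 then ranged from -1.30 to 0.39 for Hk1, -0.44 to 0.61 for Pfkl, -0.44 to 0.11 for Aldoa, -0.22 to 0.054 for Eno1, -0.64 to 0.24 for Ldhb, -0.61 to 0.59 for Slc2a1, -4.14 to 0.87 for Slc16a1, -4.52 to 0.72 for Slc16a3 and -0.49 to 0.0090 for Mpc2. Slc2a1 was at -0.024 in limma-voom and Slc16a1 at 0.036 in the strand column. The cause was not tested. Counts were lowest for Hk2, Rpia and Slc16a3.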
